A study of Homo sapiens with 24 samples.

Results

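The 62 genes described here encode F-box proteins, cullins and DCAF proteins, the scaffolds and substrate receptors of the cullin-RING ubiquitin ligases. They were chosen by symbol, as genes starting with FBXO, FBXL, FBXW or CUL and a digit, or with DCAF, that hold an m6A peak in any of the 4 deposited lists; CUL4B and antisense genes were left out. They make up 62 of the 9560 genes with a peak in any list. They comprise 24 FBXO, 13 FBXL, 5 FBXW, 6 CUL and 14 DCAF genes. Another 27 protein-coding genes with such symbols, of 89 in the reference table, carried no peak in any list and are not members, among them CUL5, FBXL17, FBXW8, FBXO32 and FBXO4.

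The study mapped N6-methyladenosine (m6A), a methylated base of messenger RNA, in U2OS, a human osteosarcoma line. Polyadenylated RNA was precipitated with an antibody against the mark and sequenced beside its input. Cells were labelled WT or METTL3 KO, and METTL3 is the catalytic subunit of the main m6A methyltransferase. Both were left without UV or given UVC at a 50 J dose and kept 2 min at 37 °C. All 4 conditions had been grown with 10 µM BrdU, a thymidine analogue, for 24 to 48 h beforehand. The sources used here do not say whether the KO line is 1 clone. The 24 samples hold 3 IP libraries for unirradiated WT cells, 4 for irradiated WT cells, 3 for unirradiated KO cells and 2 for irradiated KO cells, each with an input; the plots label unirradiated cells minus UV and irradiated cells plus UV.

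Each condition has 1 list of peaks over all its replicates, with a start and an end in bases along a RefSeq transcript and no score or read count. The depth behind a peak is therefore unknown, no value has a replicate error, and no test between conditions was made. The 95% Wilson intervals given cover counting error alone. A listed peak depends on the transcript's level as well as on its methylation, and fewer cells and less RNA per cell cannot be told apart. METTL3 itself carried 2 peaks in unirradiated WT, 2 in irradiated WT, 1 in unirradiated KO and 2 in irradiated KO. A peak does not measure a transcript's level, so the knockout could not be checked. Peaks in the KO lists therefore cannot be called independent of METTL3. Of 7 osteoblast markers, RUNX2, SPARC and COL1A1 carried peaks and ALPL, BGLAP, COL1A2 and SP7 carried none in any list. The lists held 13989 peaks in unirradiated WT, 15465 in irradiated WT, 13852 in unirradiated KO and 9471 in irradiated KO. The condition with most IP libraries, irradiated WT, thus had most peaks and the one with fewest, irradiated KO, had fewest, and the part the number of libraries played was not tested.

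In a cullin-RING ligase, a cullin holds a RING protein and a ubiquitin-conjugating enzyme at one end and a substrate receptor at the other. CUL1 binds F-box proteins through the adaptor SKP1, and CUL4A binds WD-repeat DCAF proteins through DDB1, a subunit also used in the recognition of UV lesions. FBXW proteins carry WD repeats, FBXL proteins leucine-rich repeats, and FBXO proteins other domains. The ligases are switched on by attachment of NEDD8 to the cullin and off by the COP9 signalosome. Their substrates include cell cycle regulators, and m6A on a transcript is known to affect its decay and translation.

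Some members carried a peak at the very start of the transcript, and the first transcribed bases are shown for 4 of these. Peaks that began within the first 10 bases were found on 12 members. FBXO21, FBXO3 and FBXO9 had such a peak in every list, ending at base 170 to 190 in FBXO21, 100 to 134 in FBXO3 and 200 to 240 in FBXO9. CUL1, DCAF1, DCAF15 and FBXO11 had it in 3 lists, FBXO45 in 2, and CUL3, DCAF10, FBXO30 and FBXW9 in 1. Some peaks missed the limit narrowly, beginning in unirradiated WT at base 11 in FBXO45, 12 in DCAF10 and 18 in CUL3. In unirradiated KO, a CUL1 peak began at base 22. The start sequences of FBXO21, DCAF15, FBXO45 and FBXO30 are shown because the gene has a single annotated start, so that the peak covers these letters if the listed transcript uses it. They are the first 30 bases on the RNA strand from RefSeq (GRCh38.p14), within the gene's first exon, with GGAC, the core of the commonest m6A consensus, in capitals.
FBXO21 (chr12:117190441-117190470, minus strand): ggtacgcGGACaagatggcggcggcagcag
DCAF15 (chr19:13952509-13952538, plus strand): gaaaatggcgcccagctcgaaatcggagcg
FBXO45 (chr3:196568660-196568689, plus strand): gcccttgcttcgtgccctcaacccgcatgg
FBXO30 (chr6:145814766-145814795, minus strand): gcgcgaggagggtggctgcctctggagcag

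Of these, FBXO21, with a start peak in all lists, held GGAC at bases 8 to 11. DCAF15, with a start peak in both WT lists and unirradiated KO, FBXO45, with one in irradiated WT and unirradiated KO, and FBXO30, with one in irradiated WT alone, held neither GGAC nor its reverse complement GTCC in this window. FBXO45 also had a peak at 11 to 239 in unirradiated WT, just past the limit of 10 bases. Among 22114 genes with a single start in the same table, 2437 held GGAC in the first 30 bases and 4453, or 20.1%, held it on either strand. The peaks run far past this window, so these letters describe only their beginning. Of the 62 members, 48 were found in the table and 28 had a single start. Peaks beginning in the first 10 bases made up 6.42% of the members' peaks in unirradiated WT against 4.41% of all peaks there. The values were 9.09% against 5.15% in irradiated WT, 7.77% against 4.75% in unirradiated KO and 6.56% against 5.19% in irradiated KO, resting on 7, 11, 8 and 4 member peaks in that order.

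A second set of sequences belongs to FBXO2 and FBXO44, neighbours on chromosome 1 that share one pattern of peaks. Both encode F-box proteins with an FBA domain, through which FBXO2 binds sugar chains of glycoproteins. The genes run away from each other from starts that overlap by 23 bases, chr1:11654407-11654429, shown on each RNA strand with GGAC in capitals.
FBXO2 (minus strand): agacgcGGACagcgccgGGACtc
FBXO44 (plus strand): gagtcccggcgctgtccgcgtct

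The FBXO2 strand held GGAC at 2 places, 1 of them as GGACT, while GGAC on the FBXO44 strand was absent and only its reverse complement was present. A window of 23 bases held GGAC in 8% of the genes with a single start. FBXO2 carried a peak at bases 441 to 649 in unirradiated WT and at 436 to 645 in irradiated WT, and none in either KO list. FBXO44 likewise carried a peak at 2061 to 2230 and at 2111 to 2247 in the WT lists and none in the KO lists. If the listed transcripts use these starts, all of these peaks lie far downstream of the shared bases. FBXO17 and FBXO27, of the same subfamily and neighbours on chromosome 19 with 30099 bases between them, did not follow this pattern. FBXO17 had 1 peak in every list, and FBXO27 had 1 peak, at 1960 to 2115, in unirradiated WT alone.

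The members carried 109 peaks in unirradiated WT, 121 in irradiated WT, 103 in unirradiated KO and 61 in irradiated KO. A peak was found on 52 members in unirradiated WT (83.9%, interval 72.8 to 91.0), against 74.6% of all genes with a peak in any list. The values were 53 members (85.5%) against 83.4% of all genes in irradiated WT, 49 (79.0%) against 72.9% in unirradiated KO, and 39 (62.9%, interval 50.5 to 73.8) against 57.7% in irradiated KO. All of these background shares lay inside the members' intervals. Members with 2 peaks or more numbered 35 (67.3% of those with a peak) in unirradiated WT, 36 (67.9%) in irradiated WT, 29 (59.2%) in unirradiated KO and 16 (41.0%) in irradiated KO. Over all genes these shares were 51.8%, 52.1%, 52.7% and 44.8%. The median width of a member peak was 181 bases in unirradiated WT, 190 in irradiated WT, 178 in unirradiated KO and 187 in irradiated KO, and the members' peaks spanned 100 to 453 bases.

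**Figure D1:**
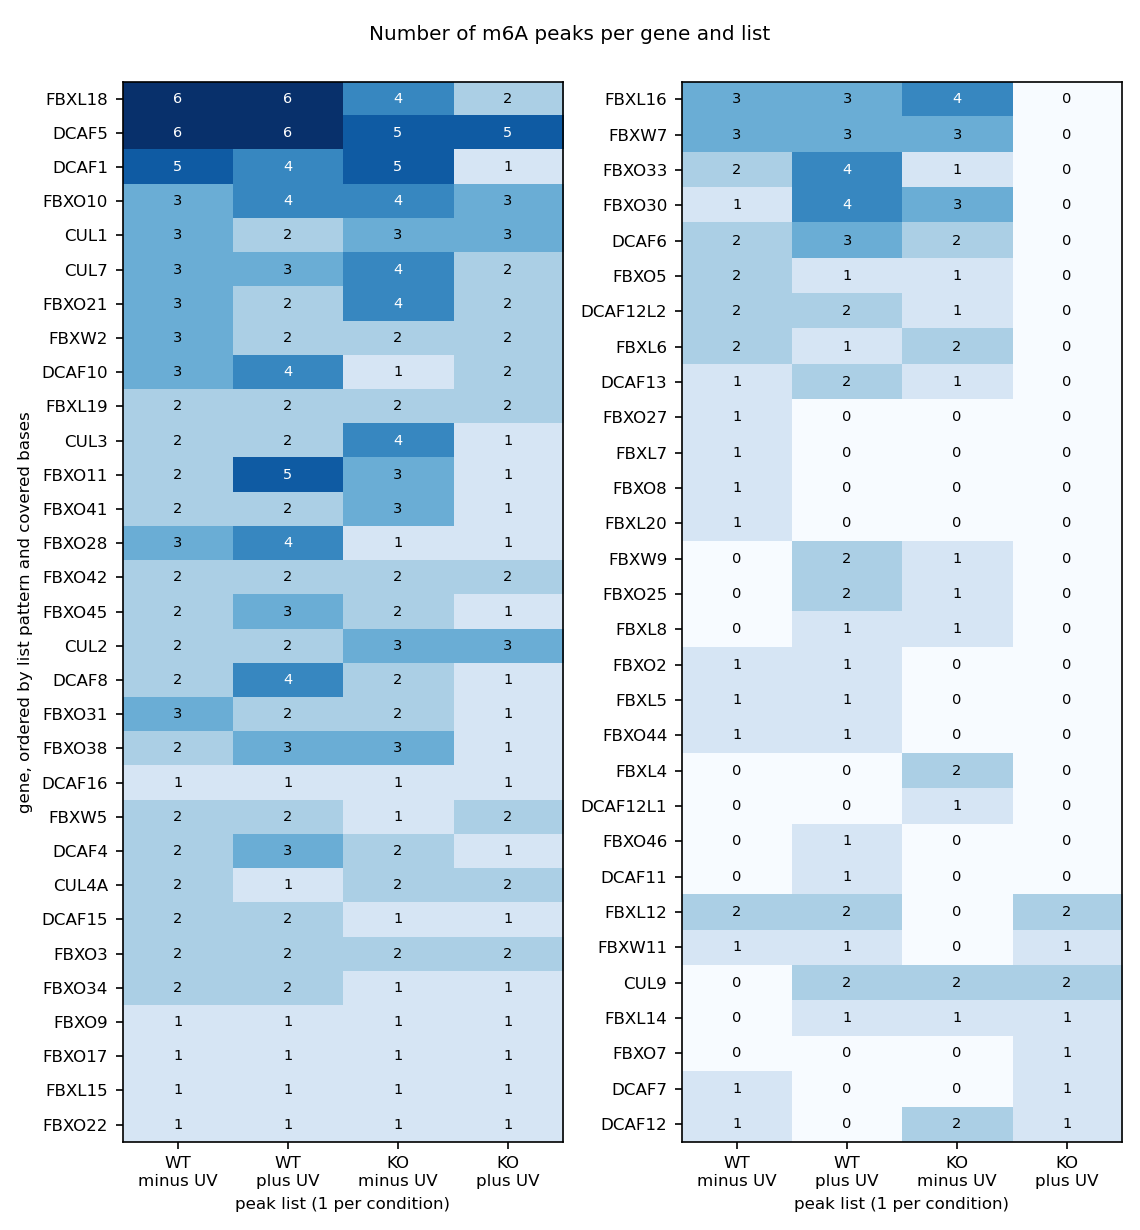
Number of peaks in each of the 4 lists (columns) for the genes shown (rows, in 2 panels), ordered by which lists hold a peak and then by covered bases; darker cells hold more peaks. FBXL18 and DCAF5 reach 6 peaks, and 39 of all 62 genes have a peak in irradiated KO against 49 to 53 in each other list.

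The 6 member cullins were marked in nearly every list, and 5 of them in every list, against 41.2% of all genes. CUL5 had no peak in any list, and CUL4B was left out. CUL1, the scaffold of the SKP1 and F-box ligases (chromosome 7, 148697756 to 148801110; gene positions here are RefSeq's on GRCh38.p14), carried 3 peaks in unirradiated WT, 2 in irradiated WT, 3 in unirradiated KO and 3 in irradiated KO. Every list had peaks in the same stretches, within bases 1 to 460 and within 2557 to 2988. CUL2, the scaffold of the VHL ligase (chromosome 10, 35008551 to 35127006), carried 2, 2, 3 and 3 peaks, in the order of lists just used, which is kept from here on. Every list had a peak within 2442 to 2795. A peak at 2241 to 2418 in unirradiated KO and at 2231 to 2417 in irradiated KO had no counterpart in the WT lists, and a further one at 621 to 730 was listed in unirradiated KO alone.

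CUL3, which binds receptors with a BTB domain (chromosome 2, 224470150 to 224585363), carried 2, 2, 4 and 1 peaks. The start of the transcript was covered at 18 to 463 in unirradiated WT, 29 to 457 in irradiated WT, and by peaks at 2 to 280 and 341 to 466 in unirradiated KO. No start peak was listed in irradiated KO, where the remaining peak lay at 2561 to 2741. CUL4A, the scaffold of the DDB1 and DCAF ligases (chromosome 13, 113208193 to 113267108), carried 2, 1, 2 and 2 peaks. Its peak at 2503 to 2697 in unirradiated WT recurred in each list, and its other peak, at 2071 to 2220 in unirradiated WT, was missing from irradiated WT alone.

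CUL7 (chromosome 6, 43037617 to 43053851), which pairs with FBXW8, carried 3, 3, 4 and 2 peaks. Every list had a peak within 308 to 582 and one within 4282 to 4495, and the peaks between them differed: 731 to 900 in unirradiated WT, 1611 to 1746 in irradiated WT, and 1389 to 1670 and 2071 to 2210 in unirradiated KO. CUL9, a p53-binding cullin on the same chromosome (43182196 to 43224587), carried 0, 2, 2 and 2 peaks. The peak at 7471 to 7650 in irradiated WT recurred in both KO lists, and a second differed in place in each list: 11 to 110, 1891 to 1990 and 971 to 1107. CUL9 was the only one of these 6 cullins with a list at 0.

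In all, 32 of the 62 members (51.6%) were marked in every list, against 41.2% of all genes. The most covered was FBXL18, a leucine-rich repeat F-box protein (chromosome 7, 5454425 to 5513809), with 6, 6, 4 and 2 peaks over 1754, 1582, 985 and 508 bases. Its 6 peaks lay at matching places in the WT lists. In unirradiated KO the peaks near bases 1045 to 1384 and 2731 to 2950 were missing, and in irradiated KO those at 1491 to 1710 and 2251 to 2538 were listed. DCAF5, a CUL4 receptor (chromosome 14, 69050881 to 69153197), carried 6, 6, 5 and 5 peaks over 1061, 1211, 1029 and 972 bases. All lists had a peak within each of 92 to 268, 2257 to 2520, 2662 to 2924 and 4691 to 4861. A peak at 3161 to 3320 in irradiated WT and at 3191 to 3340 in irradiated KO had no counterpart in the lists without UV. It was 1 of 150 merged member regions with that pattern, or 0.667%, against 1.98% of the 20600 regions on all genes.

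DCAF1, a CUL4 receptor known as the target of the HIV protein Vpr (chromosome 3, 51395867 to 51505639), carried 5, 4, 5 and 1 peaks. Its peaks at the start, at 731 to 972, at 3044 to 3328 and at 4309 to 4507 were listed in unirradiated WT, irradiated WT and unirradiated KO at nearly the same places. In irradiated KO only 4306 to 4450 was listed. FBXO10, a receptor for the survival protein BCL2, carried 3, 4, 4 and 3 peaks, with a peak within 700 to 919, 996 to 1209 and 2854 to 3075 in all lists. FBXO21 carried 3, 2, 4 and 2 peaks, FBXW2 3, 2, 2 and 2, and FBXL19, which also has a domain that binds unmethylated CpG DNA, 2 in each list. DCAF10 carried 3, 4, 1 and 2 peaks, all of those missing from unirradiated KO lying in the first 585 bases. FBXO11, a receptor for the transcription factor BCL6 (chromosome 2, 47806920 to 47906498), carried 2, 5, 3 and 1 peaks. The 2 extra irradiated WT peaks without any unirradiated WT overlap were 1791 to 2000 and 2729 to 2902, and another at 182 to 444 abutted the start peak. The peak at 2729 to 2902 abutted the next one, 2903 to 3092, and recurred in unirradiated KO at 2730 to 2920.

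Of the other members in every list, FBXO3, FBXO42, FBXO9, FBXO17, DCAF16, FBXL15 and FBXO22 had the same number of peaks in all lists. DCAF16 carried a single wide peak of 389, 411, 418 and 272 bases, and FBXO42 carried peaks at 1675 to 1855 and 2038 to 2299 in unirradiated WT that recurred throughout. FBXO41, FBXO28, FBXO45, DCAF8, FBXO31, FBXO38, FBXW5, DCAF4, DCAF15 and FBXO34 carried 1 to 4 peaks per list. DCAF8 had 4 peaks in irradiated WT and 1 in irradiated KO, and FBXO28 had the same numbers there. Merging peaks that overlapped gave 41 member regions present in every list, 27.3% of 150, against 25.7% of all regions. They lay on 29 of the 32 members (90.6%), against 94.3% of all genes with a peak in every list.

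DCAF15, FBXO22 and FBXO31, singled out after their values were seen, were the 3 members with a peak in every list and no region common to all. DCAF15, through which sulfonamide drugs degrade a splicing factor, had its start peak in 3 lists, while the other peak, at 1851 to 2180 in unirradiated WT, 1881 to 2185 in irradiated WT and 2041 to 2192 in irradiated KO, was missing from unirradiated KO. FBXO22 had 1 peak per list, at 890 to 1073 in unirradiated WT, 888 to 1010 in irradiated WT, 2423 to 2570 in unirradiated KO and 81 to 180 in irradiated KO. The WT peaks overlapped each other and neither KO peak did. FBXO31, a receptor linked to cyclin D1 breakdown after DNA damage, had peaks within 1852 to 2270 and 3291 to 3516 in 3 lists and a single irradiated KO peak at 3001 to 3120, outside both.

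**Figure D2:**
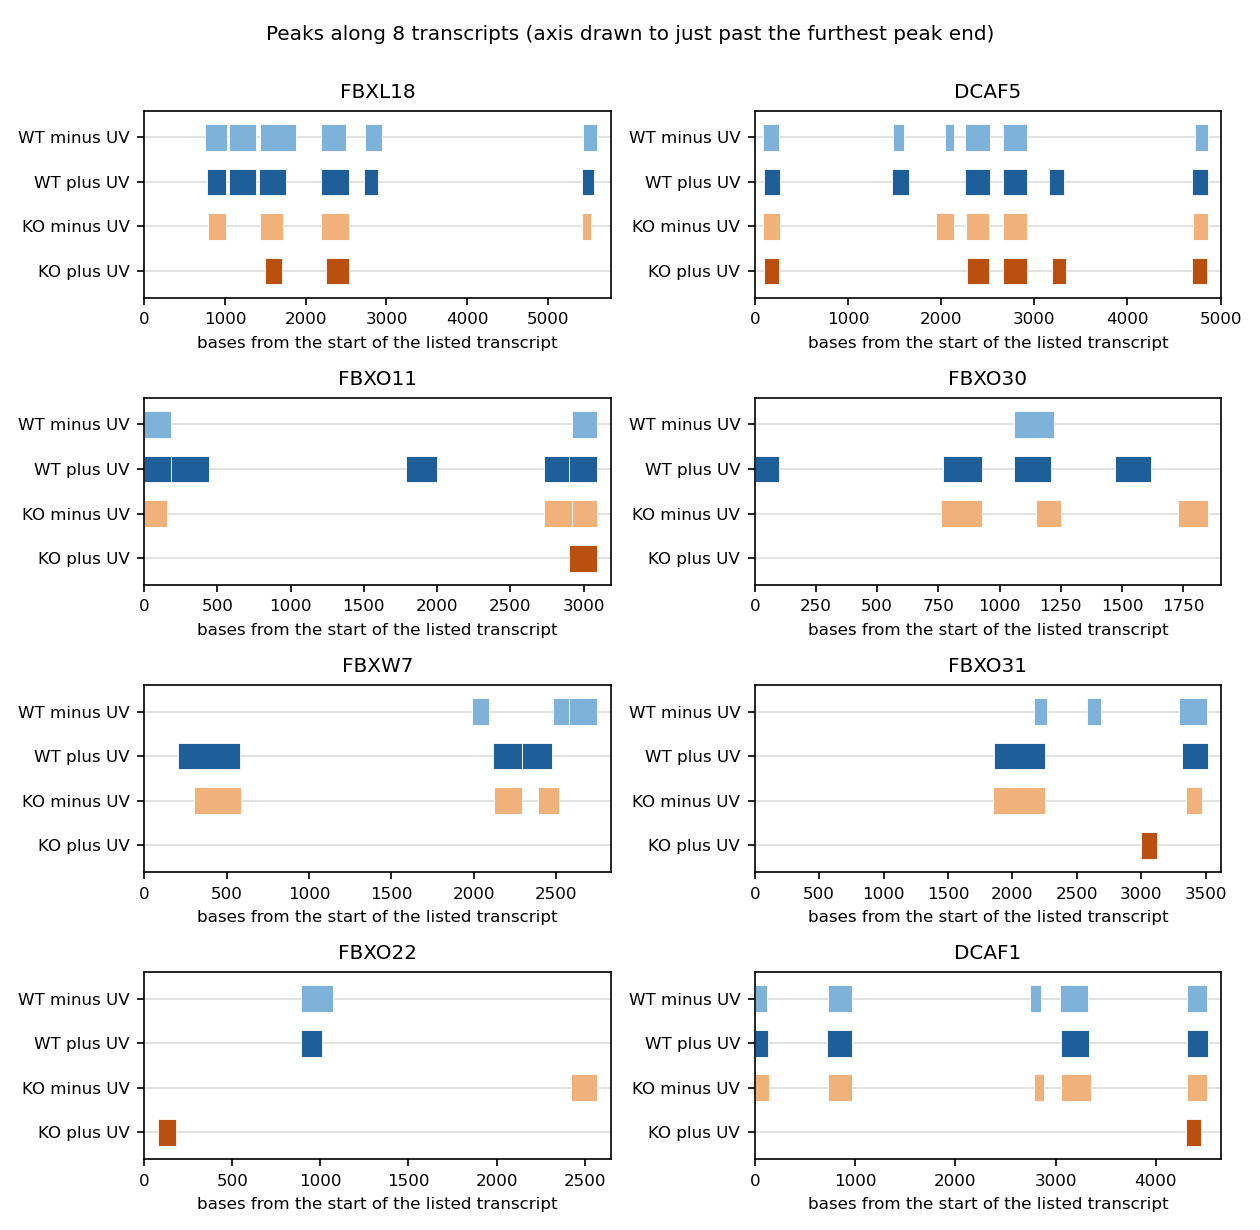
Peaks along the listed transcripts of 8 genes; the x axis gives bases from the transcript start, each row is 1 list and each bar is 1 peak, drawn to scale. DCAF5 keeps 4 places in all lists, FBXO30 and FBXW7 have no bar in the irradiated KO row, and the FBXW7 bars of unirradiated WT stand beside and not over those of irradiated WT.

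Irradiated and unirradiated WT cells were set side by side to ask whether peaks appear on these transcripts within minutes of damage. A peak in irradiated WT and none in unirradiated WT was found on 7 members (11.3%, interval 5.58 to 21.5), against 17.4% of all genes. They were CUL9, FBXW9, FBXL14, FBXO25, FBXL8, FBXO46 and DCAF11. A peak in unirradiated WT and none in irradiated WT was found on 6 members (9.68%, interval 4.51 to 19.5), against 8.61% of all genes: DCAF12, DCAF7, FBXO27, FBXL7, FBXO8 and FBXL20. Both shares are near the background. FBXW9 went from no peak to peaks at 1 to 180 and 681 to 940, and FBXL14, a receptor for the transcription factor SNAI1, from none to 1091 to 1287. FBXO25 went from none to 137 to 290 and 1391 to 1553. FBXO46, at 1741 to 1950, and DCAF11, at 2281 to 2380, had their peak in irradiated WT and in no other list, a pattern of 2 members (3.23%) against 6.97% of all genes. DCAF11 rested on 100 bases, the narrowest width in the lists.

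FBXO27, FBXL7, FBXO8 and FBXL20 had a peak in unirradiated WT and in no other list (6.45%, against 4.40% of all genes), each with 1 peak of 156, 150, 139 and 113 bases. DCAF12, a receptor for proteins that end in acidic residues, had a 100-base peak at 91 to 190 in unirradiated WT that recurred at 57 to 230 in unirradiated KO and 49 to 210 in irradiated KO. DCAF7, a partner of DYRK kinases, had 172 to 370 in unirradiated WT and 2391 to 2509 in irradiated KO, which do not overlap; it was the single member (1.61%) with that pair of lists, against 0.701% of all genes. DCAF12 was the single member missing from irradiated WT alone, against 1.23% of all genes. Over all 62 members, 19 (30.6%) had more peaks with UV in WT cells, against 32.2% of all genes, 15 (24.2%) had fewer, against 20.6%, and 28 had an equal number. The largest differences, of 3 listed peaks, were FBXO30, from 1 peak to 4, and FBXO11, from 2 to 5. Some of the 5 FBXO11 peaks abut, 1 to 181 with 182 to 444 and 2729 to 2902 with 2903 to 3092.

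FBXW7 had its peaks at different places in the WT lists. It is the receptor for cyclin E, MYC and NOTCH and a tumour suppressor (chromosome 4, 152320544 to 152536092), and it carried 3 peaks in unirradiated WT, 3 in irradiated WT, 3 in unirradiated KO and 0 in irradiated KO. In unirradiated WT these were 1989 to 2090, 2481 to 2580 and 2581 to 2748. In irradiated WT they were 205 to 580, 2119 to 2293 and 2294 to 2474, none of which overlapped an unirradiated WT peak. The unirradiated KO peaks, at 301 to 588, 2123 to 2293 and 2391 to 2517, overlapped the irradiated WT peaks, and the last also overlapped the unirradiated WT peak at 2481 to 2580. FBXW7 was the only 1 of 46 members marked in both WT lists to have no overlap between them (2.17%), against 1.85% of all genes.

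FBXO30, a receptor known from muscle wasting (chromosome 6, 145793502 to 145814795), carried a single peak at 1059 to 1220 without UV. With UV it carried 1 to 100, 771 to 928, 1058 to 1210 and 1471 to 1620. The second of these recurred in unirradiated KO at 761 to 928, so it was not limited to the UV list. FBXO33 (chromosome 14, 39397684 to 39432433) carried 1142 to 1361 and 1766 to 1929 without UV, both present with UV, when 370 to 573 and 696 to 902 were also listed; these last had no counterpart in any other list. Over all member peaks, 30 of 121 in irradiated WT (24.8%, interval 18.0 to 33.2) overlapped no unirradiated WT peak, against 29.9% of all peaks. In the other direction it was 22 of 109 (20.2%, interval 13.7 to 28.7), against 22.3%. On members marked in both WT lists, the shares were 18.0% and 15.5%, against 17.3% and 14.9%. Peaks without an overlap were narrower: their medians were 174.5 bases in irradiated WT and 129 in unirradiated WT, against 197 and 195 for those with one.

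**Figure D3:**
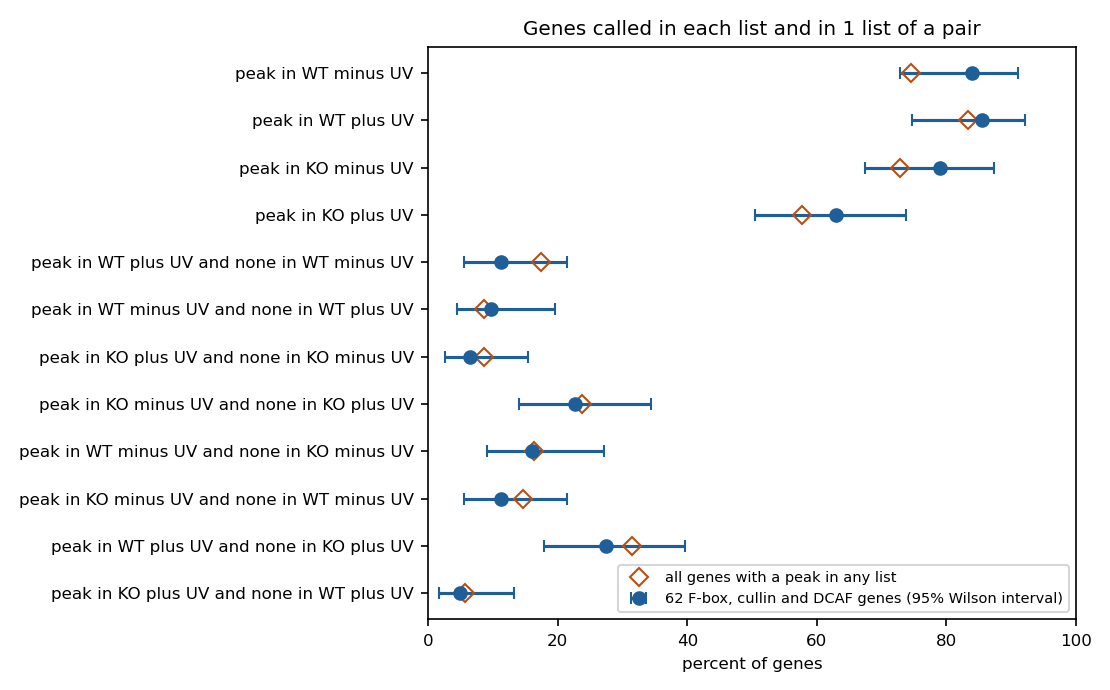
Percent of the 62 genes (filled points, bars for 95% Wilson intervals) and of all 9560 genes (open diamonds) with a peak in each list and in 1 list of each pair. The background lies inside the interval in every row, and the largest gap among the UV comparisons is that of irradiated WT and none in unirradiated WT, 11.3% against 17.4%.

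The same comparison was made in cells labelled METTL3 KO, in which the loss of METTL3 could not be checked here. A peak in unirradiated KO and none in irradiated KO was found on 14 members (22.6%, interval 14 to 34.4), against 23.8% of all genes, and the reverse on 4 (6.45%, interval 2.54 to 15.4), against 8.62%. The 4 were FBXL12, FBXW11, DCAF7 and FBXO7. FBXW11 is a receptor for phosphorylated beta-catenin and the inhibitor of NF-kappaB. FBXO7, a gene of inherited parkinsonism, had a 100-base peak at 451 to 550 in irradiated KO and none elsewhere, a pattern of 1 member (1.61%) against 1.75% of all genes. The irradiated KO list came from 2 IP libraries and the unirradiated KO list from 3, and the part this played was not tested.

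Of the 14 with an unirradiated KO peak alone of the pair, 9 also had peaks in both WT lists, so that they were missing from irradiated KO only (14.5%, against 13.5% of all genes). They were FBXL16, FBXW7, FBXO33, FBXO30, DCAF6, FBXO5, DCAF12L2, FBXL6 and DCAF13. FBXL16 (chromosome 16, 692500 to 705801) carried 3, 3, 4 and 0 peaks, the one at 2217 to 2417 in unirradiated WT overlapping peaks in irradiated WT and unirradiated KO. DCAF6 carried 2, 3, 2 and 0 peaks, the one at 1231 to 1386 in unirradiated WT recurring at 1211 to 1386 and 1205 to 1366. FBXO5, the inhibitor of the anaphase-promoting complex also called EMI1, carried 2, 1, 1 and 0 peaks, with 454 to 689 in unirradiated WT, 455 to 690 in irradiated WT and 454 to 687 in unirradiated KO. FBXO33 carried 2, 4, 1 and 0 peaks, and DCAF12L2 carried 2, 2, 1 and 0. FBXL6 had 2, 1, 2 and 0, and DCAF13, a nucleolar protein of ribosome production, 1, 2, 1 and 0.

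FBXW9, FBXO25 and FBXL8 had peaks in irradiated WT and unirradiated KO alone (4.84%, against 3.82% of all genes), and FBXL4 and DCAF12L1 in unirradiated KO alone (3.23%, against 4.24%). FBXL4, a mitochondrial F-box protein that restrains mitophagy, carried peaks at 727 to 896 and 2061 to 2200 there. All 6 member cullins had a peak in both KO lists, although CUL3 went from 4 peaks to 1 and CUL7 from 4 to 2. A peak in unirradiated KO and none in irradiated KO was thus found on 0 of 6, against 23.8% of all genes. Over the members, 28 (45.2%) had fewer peaks with UV in KO cells, against 38.1% of all genes, 6 (9.68%) had more, against 15.9%, and 28 had an equal number. The largest differences were FBXL16 from 4 to 0, DCAF1 from 5 to 1, and CUL3, FBXO30 and FBXW7 by 3 each. Of the 4 CUL3 peaks, 2431 to 2604 abutted 2605 to 2744, and joining them would lower its difference.

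Of the members' unirradiated KO peaks, 52 of 103 (50.5%, interval 41.0 to 59.9) overlapped no irradiated KO peak, against 47.0% of all peaks. On members with a peak in both KO lists it was 28 of 79 (35.4%, interval 25.8 to 46.4), against 25.0% of all peaks on such transcripts. DCAF1 accounted for 4 of the 28, and CUL3, CUL7, FBXL18, FBXO31 and FBXO38 for 2 each. Peaks of one transcript are not independent, so these intervals are too narrow. Of irradiated KO peaks, 14 of 61 (23.0%, interval 14.2 to 34.9) overlapped no unirradiated KO peak, against 22.5% of all peaks.

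WT and KO cells without UV were set side by side to see which of these transcripts were marked in only one genotype, each list resting on 3 IP libraries. A peak in unirradiated WT and none in unirradiated KO was found on 10 members (16.1%, interval 9 to 27.2), against 16.4% of all genes. These were FBXL12, FBXW11, FBXO2, FBXL5, DCAF7, FBXO44, FBXO27, FBXL7, FBXO8 and FBXL20. The reverse was found on 7 (11.3%), against 14.7%: CUL9, FBXW9, FBXL14, FBXO25, FBXL4, FBXL8 and DCAF12L1. Both shares are near the background. FBXL12 carried 2 peaks in each WT list, none in unirradiated KO and 2 in irradiated KO, so its absence was not common to the KO lists. FBXW11 carried 1, 1, 0 and 1 peaks. These 2 were the members missing from unirradiated KO alone (3.23%, against 4.21% of all genes), and CUL9 and FBXL14 were those missing from unirradiated WT alone (3.23%, against 4.62%).

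FBXO2, FBXL5 and FBXO44 had a peak in both WT lists but neither KO list (4.84%, against 7.12% of all genes), and no member was marked in both KO lists but neither WT list, a pattern of 2.00% of all genes. Nor had any member a peak in both UV lists alone or in both lists without UV alone, patterns of 1.97% and 2.27% of all genes. FBXL5, the iron-sensing receptor for the iron regulatory protein IREB2 (chromosome 4, 15604381 to 15681569), carried 1701 to 1860 in unirradiated WT and 1640 to 1868 in irradiated WT. The substrate's own transcript, IREB2, carried 2, 2, 2 and 1 peaks. The X-linked genes DCAF12L1 and DCAF12L2 differed from each other: the first had a peak at 766 to 970 in unirradiated KO alone, and the second at 704 to 894 in unirradiated WT, 691 to 890 in irradiated WT and 652 to 884 in unirradiated KO. Of the members' unirradiated WT peaks, 32 of 109 (29.4%, interval 21.6 to 38.5) overlapped no unirradiated KO peak, against 32.0% of all peaks. In reverse it was 24 of 103 (23.3%, interval 16.2 to 32.3), against 31.1%. Peak numbers were higher in unirradiated WT for 23 members (37.1%), against 29.1% of all genes, and lower for 18 (29.0%), against 29.4%. On members marked in both, the shares of peaks without an overlap were 21.4% and 16.0%, against 18.3% and 19.8%.

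With UV, a peak in WT and none in KO was found on 17 members (27.4%, interval 17.9 to 39.6), against 31.4% of all genes. The reverse was found on 3 (4.84%, interval 1.66 to 13.3), against 5.68%: DCAF12, DCAF7 and FBXO7. The 17 comprised the 9 missing from irradiated KO only, FBXO2, FBXL5 and FBXO44, and FBXW9, FBXO25, FBXL8, FBXO46 and DCAF11. By family they were 7 of 24 FBXO, 4 of 13 FBXL, 2 of 5 FBXW, 0 of 6 CUL and 4 of 14 DCAF genes. Peak numbers were higher in irradiated WT for 34 members (54.8%), against 46.7% of all genes, lower for 6 (9.68%), against 13.7%, and equal for 22. FBXL18 (6 and 2), FBXO11 (5 and 1), FBXO30 (4 and 0) and FBXO33 (4 and 0) differed by 4 peaks. DCAF1, DCAF6, DCAF8, FBXL16, FBXO28 and FBXW7 differed by 3. With abutting irradiated WT peaks joined, the differences of FBXO11, DCAF8, FBXO28 and FBXW7 would be smaller.

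Of the members' irradiated WT peaks, 68 of 121 (56.2%, interval 47.3 to 64.7) overlapped no irradiated KO peak, against 50.9% of all peaks. On members with a peak in both lists the share was 35 of 88 (39.8%, interval 30.2 to 50.2), against 25.5% of all peaks on such transcripts. This was the widest gap between member and background values among the overlaps examined, and it was not tested because peaks of one transcript share their source. FBXL18 gave 4 of the 35, and DCAF1, DCAF8, FBXO11 and FBXO28 gave 3 each. Abutting peaks were counted apart. In FBXO28, 849 to 1102, which overlapped the irradiated KO peak, abutted 1103 to 1218, and that abutted 1219 to 1330. In DCAF8, 254 to 458 abutted 459 to 621, and in FBXO11 1 to 181 abutted 182 to 444. With peaks within 100 bases merged, 52.4% of the members' 105 irradiated WT peaks overlapped no irradiated KO peak. The merged share was not computed for all peaks. Of the 68 peaks, 22 were narrower than 150 bases, as were 4 of the 53 that did overlap. The lists rest on 4 IP libraries in WT and 2 in KO. In reverse, 9 of 61 irradiated KO peaks (14.8%, interval 7.96 to 25.7) overlapped no irradiated WT peak, against 19.3%.

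**Figure D4:**
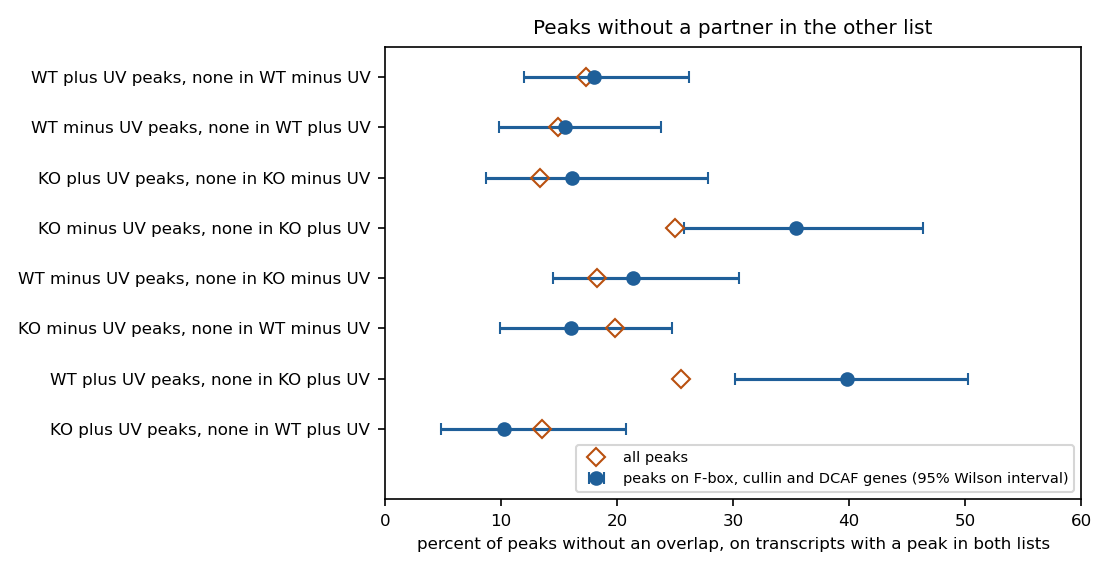
Percent of peaks without an overlapping peak in the other list, on transcripts that both lists mark, for the 62 genes (filled points, bars for 95% Wilson intervals of counting error) and for all peaks (open diamonds). The 2 comparisons against irradiated KO reach 35.4% and 39.8%, with background values of 25.0% and 25.5% below their intervals. Peaks of one transcript are not independent, so the intervals are too narrow, and the gaps were not tested.

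Merged across lists, the members' peaks formed 150 regions. Regions in every list but irradiated KO numbered 26 (17.3%, against 12.4% of all regions), regions in both WT lists but neither KO list 11 (7.33%, against 7.87%), and regions in irradiated WT alone 16 (10.7%, against 10.8%). A single region (0.667%), that of CUL2 near base 2241, was found in both KO lists but neither WT list, against 2.55%. Regions in 1 list alone numbered 46 (30.7%, against 31.5%).

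The rest of the ligase machinery was examined through 4 lists of genes. Their shares below are of the genes with a peak in any list. The same shares over all genes were 74.6%, 83.4%, 72.9% and 57.7% in the 4 lists and 41.2% for every list. Of 17 core components and adaptors, 15 carried a peak, 12 (80.0%) in unirradiated WT, 13 (86.7%) in irradiated WT, 9 (60%) in unirradiated KO, 11 (73.3%) in irradiated KO and 7 (46.7%) in every list. The adaptors SKP1 and DDB1 carried 1 peak in each list. The ubiquitin-conjugating enzymes CDC34, UBE2D1 and UBE2G1, 3 of the 15 genes, had peaks in both WT lists but neither KO list, against 7.12% of all genes, with 1, 1 and 2 peaks per list. Of their relatives, UBE2D3 and UBE2L3 had peaks in every list and UBE2D2 in all but unirradiated KO. A peak in unirradiated WT and none in unirradiated KO was found on 5 of the 15 (33.3%), against 16.4% of all genes. The lists below went the other way, each with a share under 16.4%. There it was found on 1 of 20 NEDD8 and COP9 genes, 5 of 47 receptors (10.6%) and 5 of 41 substrates (12.2%). Of 25 genes for NEDD8 attachment, CAND exchange and the COP9 signalosome, 20 carried a peak. They were 18 (90.0%), 19 (95%), 19 (95%) and 17 (85.0%) in the 4 lists, and 16 (80.0%) in every list. Each was above the share of all genes, as was each such share of the members and of the receptors and substrates below. None of this was tested. CAND1, which exchanges receptors on CUL1, carried 3, 4, 4 and 3 peaks. The NEDD8-conjugating enzyme UBE2M had 1 peak in each WT list and none in the KO lists. It was the only 1 of the 20 genes with that pattern, against 7.12% of all genes. Among the receptors and substrates below, 2 of 47 and 1 of 41 had it. UBE2F, also a NEDD8-conjugating enzyme, carried 1, 1, 2 and 1 peaks.

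Of 55 F-box proteins and receptors under other symbols, 47 carried a peak. They were 42 (89.4%), 43 (91.5%), 42 (89.4%) and 35 (74.5%) in the 4 lists and 30 (63.8%) in every list. SKP2, the receptor for p27, carried 1 peak in each list, and BTRC, the close relative of FBXW11, carried 4, 2, 5 and 3. PHIP, a CUL4 receptor, carried 5, 2, 4 and 0, and AMBRA1, the receptor for D-type cyclins, 7, 5, 6 and 1. A peak in unirradiated KO and none in irradiated KO was found on 10 of the 47 (21.3%), against 23.8% of all genes. Of 45 known substrates, 41 carried a peak. They were 38 (92.7%), 37 (90.2%), 35 (85.4%) and 32 (78.0%) in the 4 lists, and 25 (61.0%) in every list. Among substrates of FBXW7, MYC carried 2, 1, 1 and 1 peaks, NOTCH1 5, 5, 4 and 3, and CCNE1 0, 1, 0 and 0. BCL6, the substrate of FBXO11, carried 1, 1, 1 and 0.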

How the data were processed

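Per the labels' protocols, total RNA passed through repeated polyA selection, and libraries were sequenced as 50-base single-end reads. The submitters' processing notes name TopHat2 2.0.14 and the build hg38. The authors deposited 4 lists of peaks, 1 per condition, whose unit is a position, the start and end in bases along a RefSeq transcript. For the peak caller, its threshold and the combining of inputs and replicates, the sources used here state nothing. The values hold no counts, so depth and replicate error are unknown.

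Accessions were matched to genes through a RefSeq table (GRCh38.p14). Of 9674 transcripts, 9563 matched, and 482 peaks lay on the others. Each member is represented by 1 transcript. One member enters the counts and its own values are not reported here. Positions were read as 1-based with both ends included, since widths then begin at 100 bases. Peaks sharing at least 1 base were counted as overlapping. A gene was called in a pair when 1 list held a peak on it and the other none, and shares carry 95% Wilson intervals. Members' counts were read against the same share over all 9560 genes. Overlap counting was tested on simulated data. Python 3.11.15 and pandas 2.3.3 were used.

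The members and lists were chosen with earlier results of these data known. Named with values were every cullin, the 12 members with most covered bases, the 6 longest of each pattern, members differing by 3 peaks or more within a pair, and up to 4 genes per pathway list and comparison. The alternatives were wider peaks alone, merging, stricter overlap, a minimum number of peaks, and leaving out each family.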

Additional observations from a re-analysis of the deposited data

Results flagged for a closer look

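Several members had opposite differences with UV in WT and KO cells. None of these differences was tested, since each condition has 1 list, and the UV lists came from 4 IP libraries in WT and 2 in KO, so the number of libraries and the condition cannot be told apart. The number of members with a peak differed by 1 in WT and by -10 in KO, a gap of 11. The members' peaks differed by 12 and -42, a gap of 54, and their covered bases by 3294 and -8082, a gap of 11376.

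Of the 62 members, 14 had opposite signs. With UV, 13 (21%) had more peaks in WT and fewer in KO, against 11.9% of all genes, and 1 (1.61%) the reverse, against 2.60%. Over all genes too, the irradiated WT list was the longer and the irradiated KO list the shorter of its pair. The gap in peaks (the WT difference minus the KO difference) was 6 for FBXO30 and 5 for FBXO11. It was 3 for DCAF6, DCAF8, FBXO25, FBXO33, FBXO38 and FBXW9. It was 2 for DCAF13, DCAF4, FBXL8, FBXO10 and FBXO45. DCAF7 alone went the other way, with a gap of -2. These gaps count listed peaks, and 23 of 201 pairs of next peaks on a member abutted each other. In irradiated WT, FBXO38 had 2217 to 2316, 2317 to 2533 and 2534 to 2644, and FBXO45 568 to 894 and 895 to 1087. With abutting peaks joined, neither gene would have more peaks with UV in WT. In FBXO11, 1 to 181 abutted 182 to 444 and 2729 to 2902 abutted 2903 to 3092 in irradiated WT. Its peak at 2730 to 2920 abutted 2921 to 3089 in unirradiated KO. In DCAF8, 254 to 458 abutted 459 to 621 in irradiated WT. Joining these would lower the gaps of FBXO11 and DCAF8.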

How the results depend on the processing

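A count was held to 1.5 times its reported value, and a share to the 95% Wilson interval around it. Of 148 values recomputed, 123 stayed within these limits and 25 did not. The 123 include the members called in each pair after close peaks were merged. Merging cannot change whether a gene has a peak, so those counts show nothing about stability. A further 88 values, from leaving out copy-numbered transcripts and from accessions as written, were identical because neither setting removed a peak of these genes, so they show nothing about stability. With 2 peaks or more required against 0, the members called numbered 3 for irradiated WT and not unirradiated WT (all genes, 5.13%), 0 in reverse (2.41%), 1 for irradiated KO and not unirradiated KO (1.47%), 6 in reverse (9.95%), 1 for unirradiated WT and not unirradiated KO (5.22%), 2 in reverse (3.94%), 9 for irradiated WT and not irradiated KO (13.6%), and 0 in reverse (0.732%). Among the 48 members with 3 peaks or more over all lists, an alternative chosen after seeing the data and set against 7027 such genes, the counts outside the limit were 4 for irradiated WT and not unirradiated WT (10.2%), 1 in reverse (4.04%), 2 for irradiated KO and not unirradiated KO (6.77%), 2 for unirradiated WT and not unirradiated KO (11.2%), 4 in reverse (9.66%), 11 for irradiated WT and not irradiated KO (26.2%), and 1 in reverse (2.55%). Both of these settings can only lower a count, and the second holds counts among 48 members to counts among 62. With peaks narrower than 150 bases left out, 1 member was called in irradiated KO and not irradiated WT (all genes, 5.01%), 39.5% of the unirradiated WT peaks overlapped no unirradiated KO peak, the core components with an irradiated WT peak numbered 8 (13 with all widths), and the NEDD8 and COP9 genes with an unirradiated KO peak 11 (19 with all widths). Requiring an overlap of 50% of each peak gave 34.7% for irradiated WT against unirradiated WT and 33.0% for unirradiated KO against unirradiated WT. Under these width and overlap settings, no share over all genes or peaks was computed beside the core and NEDD8 counts or the overlap shares. On transcripts that both lists mark, the shares were 35.4% for unirradiated KO against irradiated KO, 21.4% for unirradiated WT against unirradiated KO, 16.0% in reverse and 39.8% for irradiated WT against irradiated KO.

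Inside their interval but moved by over 1.5 times were 4 shares: members called in irradiated KO and not irradiated WT, 2.08% without DCAF genes (4.84% with them); irradiated KO peaks without an unirradiated KO overlap, 15.2% with peaks narrower than 150 bases left out (23.0%); and those without an irradiated WT overlap, 8.70% under the same width (14.8%) and 23.0% with an overlap of 50%. No paired analysis was possible because each condition has 1 list over all its replicates, and leaving out a replicate was not run for the same reason. The search for GGACT and GGAC inside peaks was not run, as transcript sequences were not used here. With no read counts, an unmethylated transcript, a low one and a shallowly covered one cannot be told apart.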
